A study of Rattus norvegicus with 24 samples.

Results

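Autophagy and lysosome genes were followed in the skeletal muscle of rats with cardiac cachexia. The 10 genes, Map1lc3a, Map1lc3b, Gabarapl1, Sqstm1, Bnip3, Bnip3l, Ulk1, Becn1, Ctsl and Tfeb, were chosen by name, with earlier results of these data known. All 10 were among the 10851 genes of the expression table. RNA of the left medial gastrocnemius, a calf muscle made mostly of fast fibers, was sequenced in 24 male Wistar rats, 6 in each of 4 groups, with 1 animal per library. The Sed rats received saline and stayed sedentary, and the Ex rats received saline and trained on a treadmill. The CC-Sed and CC-Ex rats received a single injection of monocrotaline, a plant toxin that causes pulmonary hypertension and right heart failure with loss of muscle, and the CC-Ex rats also trained. Training ran for weeks while the disease developed, and muscle was taken days after the last exercise test. Rats given monocrotaline whose right ventricle had not enlarged had been excluded by the authors, so that the CC groups hold only rats with that sign of disease, and the ages of the rats are not given in the sources used here.

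Autophagy is the route by which a cell wraps its own proteins and organelles in a membrane and delivers them to the lysosome to be digested. A kinase complex built on Ulk1 starts the process, a lipid kinase complex that holds Becn1 marks the membrane, and small proteins of the Atg8 family (Map1lc3a, Map1lc3b, Gabarapl1) are attached to it. Cargo receptors such as Sqstm1, Bnip3 and Bnip3l bind both the cargo and the Atg8 proteins, cathepsins such as Ctsl digest what arrives, and the transcription factor Tfeb drives many lysosomal genes. In skeletal muscle the pathway is known for removing proteins and mitochondria during fasting, disuse and wasting, and FoxO transcription factors are known to switch on several of its genes there.

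Levels are given as CPM, the counts of a gene per 1e6 counts of its library, scaled between libraries by the TMM method. They are not divided by transcript length, so that they serve to compare rats and not genes. The Log2FC is the log2 of the ratio of the group named second over the group named first, and its standard error (SE) comes from the edgeR quasi-likelihood fit over all 24 rats. A gene was said to rise or fall when its edgeR p-value, adjusted by Benjamini-Hochberg over the 10851 genes, was under 0.05. A differentially expressed gene (DEG) also had a Log2FC beyond 1 in either direction, the criterion of the study. The pooled effect of monocrotaline is the mean of its effects in sedentary and in trained rats, 12 against 12. Whole muscle was measured, so that a change in the cells present and a change in the RNA per cell cannot be told apart.

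The 8 genes Map1lc3a, Map1lc3b, Gabarapl1, Sqstm1, Bnip3, Bnip3l, Ulk1 and Ctsl passed the pooled test with higher levels in the monocrotaline rats. Their Log2FC was above 0 both without and with training. In the single comparisons only Gabarapl1, Bnip3 and Ctsl passed without training, and only Gabarapl1 with training. Becn1 and Tfeb did not pass the test in any comparison. The largest pooled differences were those of Map1lc3b, Gabarapl1, Ctsl and Bnip3, between 2.65 and 3.79 times the saline level. The promoters of these 4 genes are shown because their pooled differences were the largest. They are the 250 bases before the transcription start, on the gene's own strand, from RefSeq on the GRCr8 assembly, with capitals where 1 of 4 searched motifs was found.
Map1lc3b: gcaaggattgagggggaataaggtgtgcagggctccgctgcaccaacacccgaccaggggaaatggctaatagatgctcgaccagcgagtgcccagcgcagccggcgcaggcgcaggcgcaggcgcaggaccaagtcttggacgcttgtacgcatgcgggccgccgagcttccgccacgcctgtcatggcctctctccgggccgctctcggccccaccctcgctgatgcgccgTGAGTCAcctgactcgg
Gabarapl1: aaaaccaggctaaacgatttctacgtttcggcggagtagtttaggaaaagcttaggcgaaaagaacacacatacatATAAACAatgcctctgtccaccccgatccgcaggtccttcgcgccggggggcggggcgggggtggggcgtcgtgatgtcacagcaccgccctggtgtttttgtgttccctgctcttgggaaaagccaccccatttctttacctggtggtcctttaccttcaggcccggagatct
Ctsl: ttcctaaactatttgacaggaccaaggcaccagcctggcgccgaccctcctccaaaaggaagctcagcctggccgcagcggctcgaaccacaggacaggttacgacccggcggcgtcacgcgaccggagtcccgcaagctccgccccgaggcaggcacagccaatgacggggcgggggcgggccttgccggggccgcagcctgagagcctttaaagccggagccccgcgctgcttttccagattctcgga
Bnip3: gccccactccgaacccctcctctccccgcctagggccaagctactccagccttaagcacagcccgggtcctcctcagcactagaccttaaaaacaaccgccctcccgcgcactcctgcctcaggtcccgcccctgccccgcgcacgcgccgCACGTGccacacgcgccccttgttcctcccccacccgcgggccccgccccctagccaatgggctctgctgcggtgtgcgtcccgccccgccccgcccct

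The Map1lc3b window lies at chr19:66574345-66574594 on the plus strand, the Gabarapl1 window at chr4:164666082-164666331 on the plus strand, the Ctsl window at chr17:769854-770103 on the plus strand, and the Bnip3 window at chr1:203154963-203155212 on the minus strand. The motifs searched on both strands were CACGTG (the E-box that TFEB-type factors bind), GTAAACA and ATAAACA (core letters bound by FoxO factors), and TGAGTCA (bound by AP-1 factors). Bnip3 held CACGTG from 99 to 94 bases before the start, Gabarapl1 held ATAAACA from 174 to 168, and Map1lc3b held TGAGTCA from 17 to 11. Ctsl held none of the 4, and neither did the windows of Sqstm1, Ulk1 and Tfeb, the other matched genes of the 7 with an entry (Map1lc3a, Bnip3l and Becn1 had none). Among all 33469 promoters of the same length, 5.59% held CACGTG, 3.21% GTAAACA, 4.04% ATAAACA and 4.05% TGAGTCA. Among the 9754 promoters of genes in the expression table the shares were 8.19%, 2.23%, 1.89% and 3.02%. A match describes the letters of these windows and was not tested as a binding site.

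In Sed vs. CC-Sed, 3 of the 10 genes rose (Gabarapl1, Bnip3 and Ctsl), each a DEG, where 6.46% of all genes passed the adjusted test and 1.87% were DEGs. With unadjusted p-values, 8 of the 10 genes were under 0.05, beside 28.4% of all genes. In Ex vs. CC-Ex, Gabarapl1 alone of the 10 rose, as a DEG, where 0.995% of all genes passed and 0.525% were DEGs. An unadjusted p-value under 0.05 was found for 9 of the 10 genes, beside 22.6% of all genes. Among these 9, Tfeb was lower in CC-Ex (Log2FC -0.24, edgeR unadjusted p = 0.0421) and the others were higher. Over the 12 monocrotaline and 12 saline rats, 8 of the 10 genes rose, where 27.8% of all genes passed, 17.2% upward and 10.6% downward. Of these 8, 6 were DEGs, a class that held 2.88% of all genes. Without CC-Ex replicate 5 this count was 4, since Sqstm1 and Ulk1 dropped to a pooled Log2FC of 0.81 and 0.77, and it was 4 with upper-quartile scaling and 3 with limma-voom. The median Log2FC of the 10 genes was 1.03 in Sed vs. CC-Sed, 1.12 in Ex vs. CC-Ex and 1.08 pooled, beside medians over all genes of 0.021, 0.013 and 0.014. Without CC-Ex replicate 5 the median of the 10 genes was 0.58 in Ex vs. CC-Ex and 0.79 pooled. In the pooled comparison the same 8 genes passed in all 24 fits made with 1 rat removed, whereas the calls in the single comparisons, made on 6 against 6 rats, turned on single animals.

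**Figure D1:**
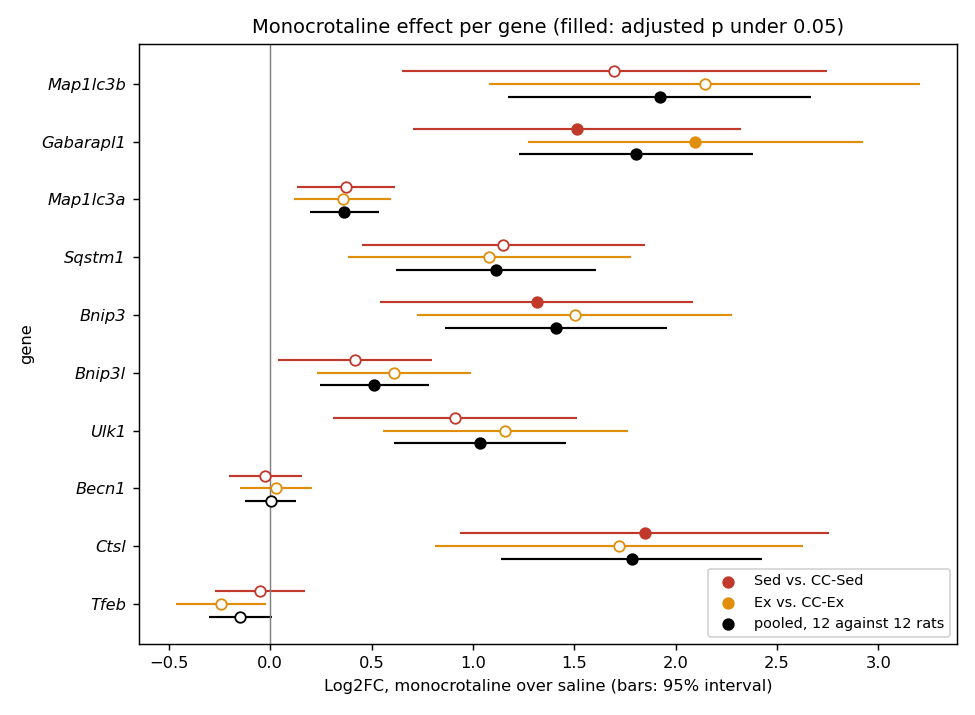
Log2FC of each gene (x axis, monocrotaline over saline) in Sed vs. CC-Sed, in Ex vs. CC-Ex and pooled over 12 against 12 rats; circles are edgeR estimates, filled where the adjusted p-value is under 0.05, and bars give the 95% interval (normal, from the SE). The pooled estimates of 8 genes are filled and lie between 0.37 and 1.92, while those of Becn1 and Tfeb are open and lie at 0.0026 and -0.15.

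Map1lc3b encodes LC3B, the Atg8 protein most used to mark autophagosomes. Its level ran from 42.1 through a median of 53.8 to 66.7 CPM in Sed and from 45.8 through 52.3 to 57.3 CPM in Ex. It ran from 64.2 through 158.7 to 353.3 CPM in CC-Sed and from 56.1 through 101.2 to 897.6 CPM in CC-Ex. In each CC group 5 of the 6 rats lay above every rat of the matching saline group, and the lowest CC rat lay inside its range. The pooled Log2FC was 1.92 (SE 0.38, edgeR adjusted p = 0.00178). The single comparisons came close to the threshold without passing it, with a Log2FC of 1.70 (SE 0.534, edgeR adjusted p = 0.0563) in Sed vs. CC-Sed, while Ex vs. CC-Ex gave 2.14 (SE 0.542, edgeR adjusted p = 0.0525). The second of these rested on CC-Ex replicate 5, the rat at 897.6 CPM. Without it the Log2FC was 0.87 in Ex vs. CC-Ex and 1.27 pooled, and the pooled value still passed (edgeR adjusted p = 0.000657).

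Gabarapl1 encodes an Atg8 protein of the GABARAP branch, which acts late in the closing of the autophagosome and its fusion with the lysosome. Its level lay between 53.9 and 80.5 CPM in Sed, with a median of 65.9, and between 41.8 and 75.8 CPM in Ex, with a median of 52.6. In CC-Sed it lay between 99.4 and 278.0 CPM, with a median of 182.4, so that all 6 rats were above all 6 Sed rats. Gabarapl1 was the only one of the 10 genes whose groups did not overlap in Sed vs. CC-Sed, where 2.32% of all genes were higher without overlap. In CC-Ex it lay between 48.9 and 701.9 CPM, with a median of 157.6, and 5 of the 6 rats were above every Ex rat. The Log2FC was 1.51 (SE 0.413, edgeR adjusted p = 0.0358) in Sed vs. CC-Sed, 2.10 (SE 0.421, edgeR adjusted p = 0.0325) in Ex vs. CC-Ex and 1.80 (SE 0.295, edgeR adjusted p = 0.00046) pooled. It was the gene of the 10 that passed in both comparisons. The call in Sed vs. CC-Sed held in 3 of 12 fits made with 1 rat removed, with adjusted p-values up to 0.0958 (without CC-Sed replicate 6). The call in Ex vs. CC-Ex held in 4 of 12 such fits, with adjusted p-values up to 0.0923 (without Ex replicate 6), and its Log2FC fell from 2.10 to 1.34 without CC-Ex replicate 5 (edgeR adjusted p = 0.0597).

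Map1lc3a encodes LC3A, a close relative of LC3B. Its levels were less spread and shifted less, with medians of 105.8 CPM in Sed and 104.6 in Ex, against 130.8 in CC-Sed and 124.4 in CC-Ex. All 6 CC-Sed rats lay above the Sed median and all 6 CC-Ex rats above the Ex median, although the groups overlapped, with the highest Sed rat at 130.6 CPM and the CC-Sed rats from 121.2 to 188.4 CPM. Pooled over both settings, its Log2FC was 0.37 (SE 0.0866, edgeR adjusted p = 0.00541), with 0.37 in sedentary rats (edgeR adjusted p = 0.0626) and, with training, 0.36 (edgeR adjusted p = 0.112). The 3 Atg8 genes therefore rose by unequal amounts, and the ratio of Map1lc3b to Map1lc3a CPM had medians of 0.464 in Sed and 0.507 in Ex, against 1.12 in CC-Sed and 0.775 in CC-Ex. This ratio was computed after the values of the genes were seen and was not tested.

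**Figure D2:**
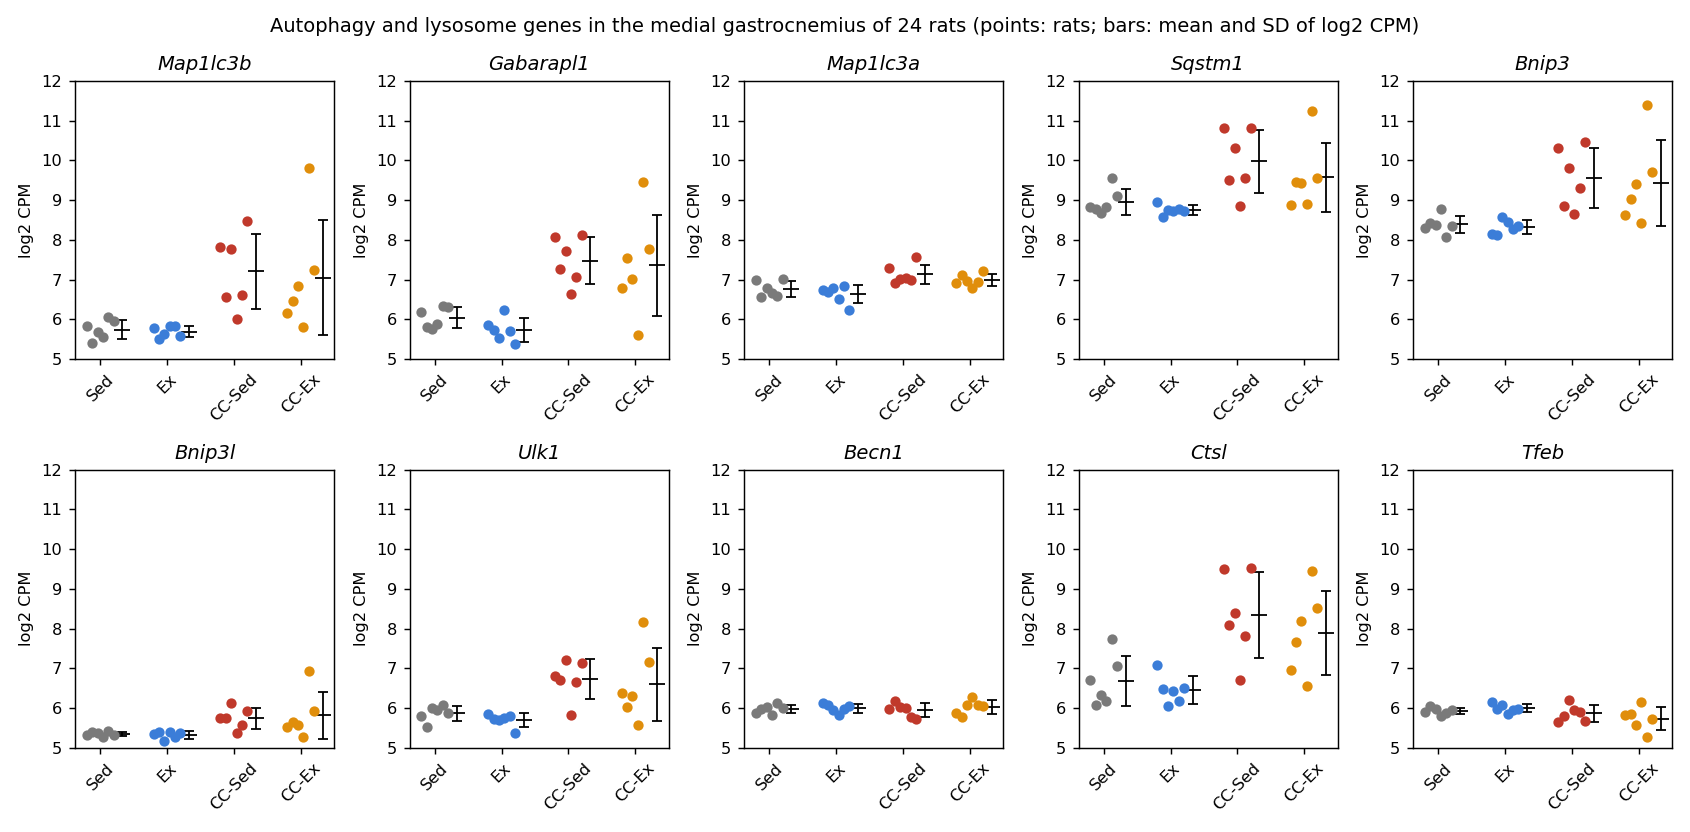
Level of the 10 genes in each rat by group, as log2 CPM on a y axis shared by all panels; points are rats in replicate order, and bars give the mean and SD of log2 CPM over the 6 rats of a group. The CC groups are higher and wider than the saline groups in 7 panels, and the shift of Map1lc3a is smaller. The 4 groups of Becn1 lie over each other, and those of Tfeb overlap, with CC-Ex the lowest and the widest.

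Sqstm1 encodes p62, a receptor that gathers ubiquitin-tagged proteins for autophagy and is itself digested with them. In Sed its level was between 406.6 and 757.7 CPM (median 456.0), and in Ex between 383.8 and 497.3 CPM (median 428.3). CC-Sed rats had between 459.0 and 1801 CPM (median 1015), and CC-Ex rats between 471.1 and 2408 CPM (median 694.5). Only 3 of the 6 CC-Sed rats exceeded every Sed rat, since Sed replicate 5 stood at 757.7 CPM. The pooled Log2FC was 1.12 (SE 0.251, edgeR adjusted p = 0.00407). It was 1.15 in Sed vs. CC-Sed (edgeR adjusted p = 0.0531), while Ex vs. CC-Ex gave 1.08 (edgeR adjusted p = 0.0994), where it dropped to 0.50 without CC-Ex replicate 5.

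Bnip3 and Bnip3l encode a pair of related receptors on the mitochondrial outer membrane that lead to the removal of mitochondria. Bnip3 was at 271.8 to 439.1 CPM in Sed (median 331.6) and 278.4 to 383.0 CPM in Ex (median 316.3). It was at 401.8 to 1402 CPM in CC-Sed (median 764.3) and 342.4 to 2693 CPM in CC-Ex (median 600.7). In each CC group 5 of 6 rats were above all rats of their saline group. Bnip3 rose in Sed vs. CC-Sed (Log2FC 1.31, SE 0.394, edgeR adjusted p = 0.0484) and pooled (Log2FC 1.41, SE 0.279, edgeR adjusted p = 0.00179), while Ex vs. CC-Ex gave 1.50 (SE 0.396, edgeR adjusted p = 0.0586). The sedentary call held in 2 of 12 fits made with 1 rat removed, with adjusted p-values up to 0.145 (without CC-Sed replicate 6). The Ex vs. CC-Ex value was 0.77 without CC-Ex replicate 5.

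Bnip3l was the steadiest of the 10 genes in Sed, between 38.4 and 42.6 CPM, and lay between 35.9 and 42.4 CPM in Ex. It lay between 41.2 and 69.5 CPM in CC-Sed (median 53.5) and between 38.8 and 123.1 CPM in CC-Ex (median 49.0), so that its change was smaller than that of Bnip3. Pooled, its Log2FC was 0.51 (SE 0.137, edgeR adjusted p = 0.0104), with 0.42 in sedentary rats (edgeR adjusted p = 0.162) and, with training, 0.61 (edgeR adjusted p = 0.0899, and a Log2FC of 0.27 without CC-Ex replicate 5). The ratio of Bnip3 to Bnip3l CPM had medians of 8.14 in Sed and 7.97 in Ex, against 13.1 in CC-Sed and 12.1 in CC-Ex, again as a description. Its ranges overlapped, from 6.38 to 11.4 in Sed and 8.59 to 23.6 in CC-Sed, and from 6.64 to 10.7 in Ex and 8.50 to 21.9 in CC-Ex.

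Ulk1, the kinase that starts autophagosome formation, was at 46.1 to 67.0 CPM in Sed (median 60.5) and 41.5 to 57.9 CPM in Ex (median 53.3). It was at 56.4 to 148.7 CPM in CC-Sed (median 108.6) and 47.3 to 286.3 CPM in CC-Ex (median 80.7). In both CC groups 5 rats were above every rat of the matching saline group and replicate 4 was below the saline median. Over all rats its Log2FC was 1.03 (SE 0.217, edgeR adjusted p = 0.00261), with 0.91 (edgeR adjusted p = 0.0685) in Sed vs. CC-Sed, while Ex vs. CC-Ex gave 1.16 (edgeR adjusted p = 0.0603). Without CC-Ex replicate 5 the last of these was 0.65. The ratio of Ulk1 to its relative Ulk2, as a description, had medians of 0.631 in Sed and 0.502 in Ex, against 1.39 in CC-Sed and 1.01 in CC-Ex. Its ranges overlapped, from 0.344 to 0.683 in Sed and 0.626 to 1.96 in CC-Sed, and from 0.369 to 0.610 in Ex and 0.346 to 2.76 in CC-Ex.

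Becn1, the scaffold of the lipid kinase complex, had almost the same level in the 4 groups. Its medians were 63.9 CPM in Sed and 64.4 in Ex, against 63.5 in CC-Sed and 67.0 in CC-Ex, and the lowest and highest of the 24 rats were at 52.9 and 77.1 CPM. The pooled Log2FC was 0.0026 (SE 0.0643, edgeR adjusted p = 0.979), with a 95% interval from -0.12 to 0.13. The sign of this value is not fixed by the data, as upper-quartile scaling gave -0.073. The upper bound of the interval lay below the pooled Log2FC of Map1lc3a.

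Ctsl encodes cathepsin L, a lysosomal protease long known to increase in wasting muscle. Its saline levels were the most variable of the 10 genes, between 67.2 and 212.7 CPM in Sed (median 92.0) and between 66.7 and 136.7 CPM in Ex (median 87.5). CC-Sed rats had between 104.2 and 738.3 CPM (median 305.3), and CC-Ex rats between 94.5 and 705.3 CPM (median 247.3). The highest Sed rat was again replicate 5, and 5 of 6 CC-Sed rats and 4 of 6 CC-Ex rats exceeded all rats of their saline group. The Log2FC was 1.85 (SE 0.465, edgeR adjusted p = 0.0252) in Sed vs. CC-Sed and 1.78 (SE 0.328, edgeR adjusted p = 0.00109) pooled, while Ex vs. CC-Ex gave 1.72 (SE 0.463, edgeR adjusted p = 0.0631). The sedentary call held in 7 of 12 fits made with 1 rat removed, with adjusted p-values up to 0.0804 (without CC-Sed replicate 6). Macrophages also make cathepsin L, and 11 of 12 macrophage and leukocyte markers were in the table (all but Adgre1). None of these 11 passed in Sed vs. CC-Sed, in Ex vs. CC-Ex or pooled, and their median pooled Log2FC was -0.089. Their summed CPM overlapped between groups, from 52.5 to 367.8 in Sed and 84.7 to 428.0 in Ex, against 83.8 to 249.6 in CC-Sed and 67.2 to 395.3 in CC-Ex. The part of macrophages in the Ctsl levels was not tested.

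Tfeb, the transcription factor of lysosomal genes, did not share the rise. Its medians were 60.8 CPM in Sed and 63.2 in Ex, against 57.8 in CC-Sed and 54.8 in CC-Ex, and the lowest of the 24 rats was CC-Ex replicate 5 at 38.5 CPM. The pooled Log2FC was -0.15 (SE 0.0799, edgeR adjusted p = 0.162), with -0.051 (edgeR adjusted p = 0.79) in sedentary rats and -0.24 (edgeR adjusted p = 0.206) in trained rats. The pooled value passed the test in 1 of 24 fits made with 1 rat removed, at -0.19 without CC-Ex replicate 4 (edgeR adjusted p = 0.0451).

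Exact permutation tests on the log2 CPM of 6 against 6 rats, which cannot give a two-sided p-value below 0.00216, were run as a second test. Their unadjusted two-sided exact p-values lay between 0.00216 (Gabarapl1) and 0.026 (Sqstm1) for the 8 genes in Sed vs. CC-Sed, and between 0.00433 (Map1lc3a) and 0.0195 (Ulk1) in Ex vs. CC-Ex. For Becn1 the exact p-values were 0.74 and 0.784, and for Tfeb 0.541 and 0.0541. The 8 genes are those that passed the pooled edgeR test on the same rats, so that the exact p-values are not separate evidence. The share of all genes with exact p-values this low was not counted.

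Training did not change any of the 10 genes past the test. In Sed vs. Ex the Log2FC lay between -0.30 (Ctsl) and 0.074 (Tfeb), and in CC-Sed vs. CC-Ex between -0.43 (Ctsl) and 0.38 (Map1lc3b). No gene of the 10 and 0 of all genes passed in either comparison by edgeR, DESeq2 or limma-voom, and none of the 10 had an unadjusted edgeR p-value under 0.05, beside 1.09% and 2.16% of all genes. The 95% intervals of CC-Sed vs. CC-Ex were wide, from -0.64 to 1.40 for Map1lc3b and from -1.31 to 0.46 for Ctsl, so that sizeable effects of training in either direction were not detectable with these rats. Without CC-Ex replicate 5 the values of Map1lc3b, Gabarapl1, Bnip3 and Ulk1 in this comparison turned from above 0 to -0.85, -0.44, -0.58 and -0.40. The narrowest interval was that of Becn1, from -0.10 to 0.25.

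The difference between the monocrotaline effects of trained and sedentary rats (the interaction) did not pass for any of the 10 genes or any of the 10851. It lay between -0.19 for Tfeb (SE 0.16) and 0.59 for Gabarapl1 (SE 0.573), and its lowest unadjusted p-value among the 10 genes was 0.241 (edgeR, Tfeb), beside 1.42% of all genes with an unadjusted p-value under 0.05. DESeq2 and limma-voom gave 0 calls as well. Bnip3 and Ctsl were called in sedentary rats and not in trained rats, but their difference between the 2 settings did not pass. It was 0.19 for Bnip3 (edgeR unadjusted p = 0.737) and -0.13 for Ctsl (edgeR unadjusted p = 0.843).

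The monocrotaline rats differed widely among themselves, and they did so for many of the 10 genes at once. Each rat was compared with the 12 saline rats. The share of all genes above every saline rat was not counted, so that these counts have no background beside them. In CC-Sed, replicates 1, 3 and 6 were above every saline rat in 8 of the 10 genes, with a median ratio to the saline median of 2.94, 2.71 and 3.30 over the genes. Replicates 2 and 5 were above in 7 and 6 genes (1.53 and 1.76), and replicate 4 in 2 genes (1.12). In CC-Ex, replicate 5 was above in 7 genes with a median ratio of 5.29, and replicate 6 in 7 genes with 2.13. Replicates 3, 2, 1 and 4 followed with 6, 5, 4 and 1 genes and ratios between 1.06 and 1.48. The replicate 4 rats of both CC groups thus sat close to the saline level, and each was the lowest of its group in 7 of the 10 genes. Among the saline rats, Sed replicate 5 was the highest of its group in 7 genes, with a median ratio of 1.14.

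**Figure D3:**
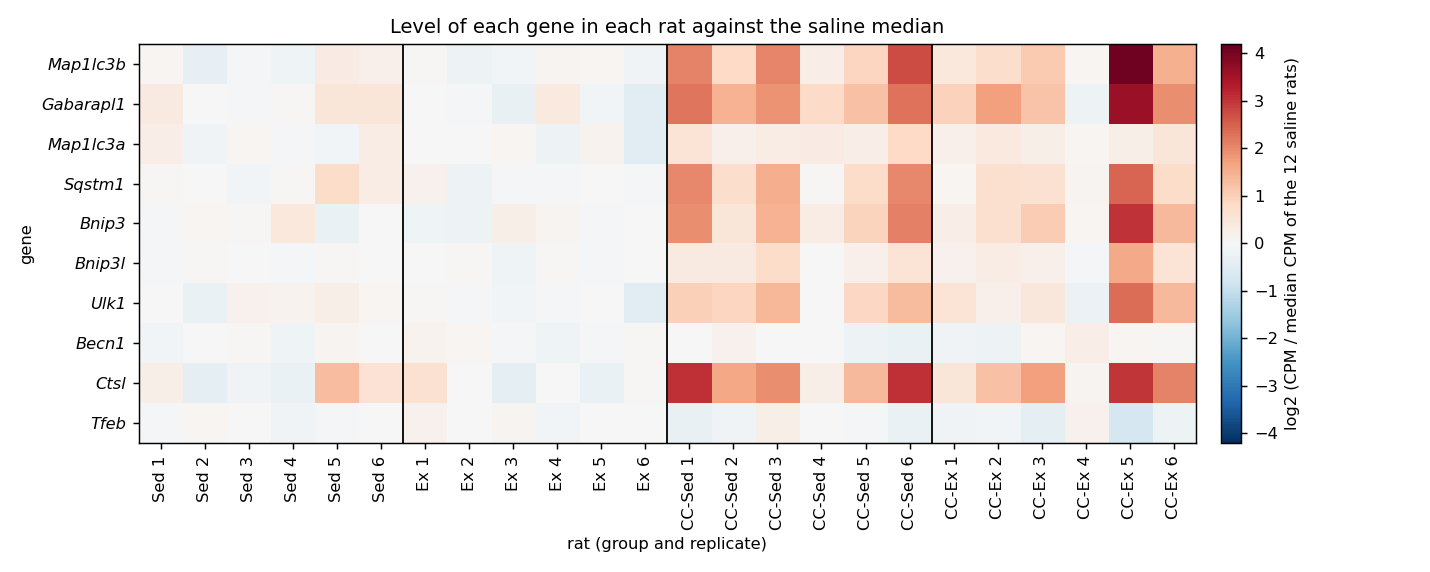
Level of each of the 10 genes (rows) in each of the 24 rats (columns, by group and replicate) as log2 of its CPM over the median CPM of the 12 saline rats; red is above and blue below that median. The deepest red is in CC-Sed replicates 1, 3 and 6 and CC-Ex replicate 5, and the replicate 4 columns of both CC groups are nearly white.

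This order was not particular to the 10 genes. Principal component 1 of all genes (on log2 CPM), which held 39.7% of the variance, placed CC-Ex replicate 5 at 96.5, CC-Sed replicates 6, 1 and 3 at 51.7, 47.5 and 35.6, and the replicate 4 rats at -16.3 (CC-Sed) and -11.5 (CC-Ex), within the saline range of -27.8 to -2.56. CC-Ex replicate 1, at -16.7, also lay in the saline range.

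Within groups, the 7 genes with the larger changes were positively correlated. After subtraction of the group means, the Pearson correlation of log2 CPM over the 24 rats lay between 0.850 and 0.949 for Map1lc3b with Gabarapl1, Sqstm1, Bnip3, Bnip3l, Ulk1 and Ctsl. Without CC-Ex replicate 5 these values lay between 0.756 and 0.919. The lowest value among the other pairs of the 7 genes was 0.707 (Bnip3l with Ctsl), and without CC-Ex replicate 5 it was 0.599 (Bnip3 with Bnip3l). The correlation of Map1lc3b with Map1lc3a was 0.334 (0.590 without CC-Ex replicate 5), that with Becn1 was -0.056 (-0.229), and that with Tfeb was -0.660 (-0.390). These correlations describe 24 libraries that also share the spread of the first component, and no p-value is attached to them.

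Counts of Map1lc3b and Gabarapl1 may be partly shared with those of their close copies, Map1lc3b2 and Gabarapl3, which was not measured. Map1lc3b2 stood at 23.5% to 34.1% of the Map1lc3b CPM in every rat, and its pooled Log2FC was 1.77 (edgeR adjusted p = 0.00178), close to that of Map1lc3b. Gabarapl3 behaved otherwise, at 81.7 to 101.5 CPM in Sed and 84.3 to 127.5 CPM in CC-Sed, with a pooled Log2FC of 0.23 (SE 0.0725, edgeR adjusted p = 0.0218). When the counts of Gabarapl1 and Gabarapl3 were added, an alternative chosen after seeing the data, the Log2FC of Gabarapl1 in Sed vs. CC-Sed fell from 1.51 to 0.90 and lost its call (edgeR adjusted p = 0.0597), while the pooled value of 1.07 passed.

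The genes of the whole table whose log2 CPM was most like each of the 10 over the 24 rats were as follows, with Pearson's r as a description and all points sharing the same libraries. Map1lc3b was nearest to Map1lc3b2 (0.995), Tbc1d15 (0.983) and Wdr43 (0.982). Gabarapl1 was nearest to Zfp280d (0.961), Ezh1 (0.950) and Numa1 (0.948), and Sqstm1 to Psmd12 (0.986), Nmt1 (0.982) and Psmd8 (0.982), of which Psmd12 and Psmd8 encode parts of the proteasome, the other large machine for protein breakdown. Bnip3 was nearest to Map1lc3b2 (0.968), Ctdspl (0.963) and Agfg2 (0.958), Bnip3l to Vps54 (0.973), Rpp14 (0.965) and Taf7 (0.964), and Ulk1 to Ascc1 (0.967), Slc7a6 (0.962) and Tmem140 (0.961). Ctsl was nearest to Eif3m (0.967), Mt2A (0.952), a metallothionein, and Cystm1 (0.951). The nearest genes to Map1lc3a, Becn1 and Tfeb were less close, with Nsa2 at 0.834, Commd8 at 0.814 and Zfp933 at 0.897.

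The wider pathway was described with 8 lists of 180 other genes, of which 164 were in the table. In the pooled comparison 48 of them rose and 19 fell, or 40.6% of the list entries beside 27.8% of all genes, with a median Log2FC of 0.080. In Sed vs. CC-Sed 8 rose and 4 fell (7.27% beside 6.46%), and in Ex vs. CC-Ex 3 rose and 0 fell (1.82% beside 0.995%). The median was thus far below that of the 10 genes, and the lists differed among themselves. Since the 10 genes and the lists were chosen with earlier results of these data known, this gap is a description and not a test. The balance of directions over all genes depended on the scaling, as TMM gave 1866 higher and 1151 lower calls pooled and upper-quartile scaling 1324 higher and 1605 lower. In Sed vs. CC-Sed TMM gave 467 higher and 234 lower calls and upper-quartile scaling 365 higher and 337 lower.

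Among upstream regulators, 12 of 28 measured genes rose pooled and 3 fell, with a median Log2FC of 0.21. Calls made up 53.6% of this list, beside 27.8% of all genes. The 3 with the smallest p-values were Foxo1 and Foxo3, the FoxO factors of muscle wasting, and Depp1, a FoxO target that affects autophagy. Each passed in both single comparisons, which no gene of the other 7 lists did. Foxo1 was at 9.63 to 17.2 CPM in Sed and 16.9 to 126.5 CPM in CC-Sed. The Log2FC of Foxo1 was 2.40 in Sed vs. CC-Sed (edgeR adjusted p = 0.0138), 2.45 in Ex vs. CC-Ex (edgeR adjusted p = 0.0329) and 2.43 pooled. Foxo3 gave 1.62 (edgeR adjusted p = 0.0137), 1.52 (edgeR adjusted p = 0.035) and 1.57 pooled. Depp1 gave 1.86 (edgeR adjusted p = 0.019), 2.26 (edgeR adjusted p = 0.0325) and 2.06 pooled. The calls of the 3 genes in Ex vs. CC-Ex held in 4, 3 and 4 of 12 fits made with 1 rat removed, and were lost with only the rats of the comparison (edgeR adjusted p = 0.169 each) and with the replicate block (edgeR adjusted p = 0.0761 each). Those of Foxo1 and Foxo3 were also lost with upper-quartile scaling (edgeR adjusted p = 0.0504 and 0.0541). Without CC-Ex replicate 5 the 3 values in that comparison were 1.94, 1.05 and 1.51.

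Of 19 initiation, lipid kinase and lipid transfer genes, 10 rose pooled and 0 fell, or 52.6% of the list beside 27.8% of all genes. The median Log2FC was 0.27. Upper-quartile scaling left 5 that rose and 1 that fell, and leaving out CC-Ex replicate 5 left 6 and 0. Atg13, a partner of Ulk1 in the kinase complex, had a pooled Log2FC of 0.87 (edgeR adjusted p = 0.00548). Wipi2 and Wdr45, which bind the lipid made by the Becn1 complex, had 0.50 (edgeR adjusted p = 0.0155) and 0.47 (edgeR adjusted p = 0.00213). Becn1 works with several of these genes and, as given above, did not pass in any comparison.

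Of 12 other genes of the Atg8 family and its conjugation, 3 rose and 1 fell under TMM scaling, and 1 rose and 3 fell under upper-quartile scaling. Under TMM the calls were 33.3% of the list, beside 27.8% of all genes. The remaining Atg8 genes changed less than Gabarapl1, Gabarap with a pooled Log2FC of 0.20 (edgeR adjusted p = 0.0255, or 0.125 with upper-quartile scaling) and Gabarapl2 with 0.39 (edgeR adjusted p = 0.00184). Atg16l1, a part of the enzyme that attaches Atg8 proteins, fell by 0.30 on the log2 scale (edgeR adjusted p = 0.00168). Of 17 entries for 16 cargo receptor and mitophagy genes, 7 rose and 4 fell, or 64.7% of the entries beside 27.8% of all genes. Among them were Calcoco1 (0.66, edgeR adjusted p = 0.00169) and Ccpg1 (0.54, edgeR adjusted p = 0.000911), both receptors for the endoplasmic reticulum, and Bcl2l13 (-0.27, edgeR adjusted p = 0.00884), a mitochondrial receptor. Bcl2l13 thus went the other way from Bnip3 and Bnip3l.

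Of 40 hydrolases other than Ctsl, 6 rose and 6 fell, with a median pooled Log2FC of -0.059. These calls were 30.0% of the list, near the 27.8% of all genes. Ctsd, the aspartic protease cathepsin D, rose by 0.47 (edgeR adjusted p = 0.00199). Of 20 membrane and sorting genes 3 rose, which were Lamp1 (0.17, edgeR adjusted p = 0.0212), Lamp2 (0.79, edgeR adjusted p = 0.00744) and Cd63 (0.63, edgeR adjusted p = 0.0251), all encoding membrane proteins of late endosomes and lysosomes, and 1 fell. Calls made up 20.0% of this list, below the 27.8% of all genes. The call of Lamp1 was lost with upper-quartile scaling (0.097, edgeR adjusted p = 0.177), and those of Lamp1 and Cd63 without CC-Sed replicate 1 or 6. Of 13 proton pump genes 3 rose and 2 fell, or 38.5% of the list beside 27.8% of all genes. Atp6v1h was at 0.87 (edgeR adjusted p = 0.0326), Atp6v1e1 at -0.30 (edgeR adjusted p = 0.0156) and Atp6v0e2 at -0.24 (edgeR adjusted p = 0.0232). The call of Atp6v1h was lost with the replicate block (0.69, edgeR adjusted p = 0.0729) and in 4 of 24 fits made with 1 rat removed (Sed replicate 3, CC-Sed replicates 1 and 6, and CC-Ex replicate 5, without which its Log2FC was 0.39), and 1 proton pump gene rose without CC-Ex replicate 5. Of 16 fusion genes 4 rose and 2 fell, or 37.5% of the list beside 27.8% of all genes. Rab7a, the small GTPase of late endosomes, was at 0.58 (edgeR adjusted p = 0.0116), Vps16 at 0.20 (edgeR adjusted p = 0.0192) and Vps41 at -0.20 (edgeR adjusted p = 0.0116). The call of Vps16 was lost with upper-quartile scaling (0.11, edgeR adjusted p = 0.072). The medians of the proton pump, fusion and receptor lists, at 0.055, 0.069 and 0.070, fell below 0 under upper-quartile scaling.

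**Figure D4:**
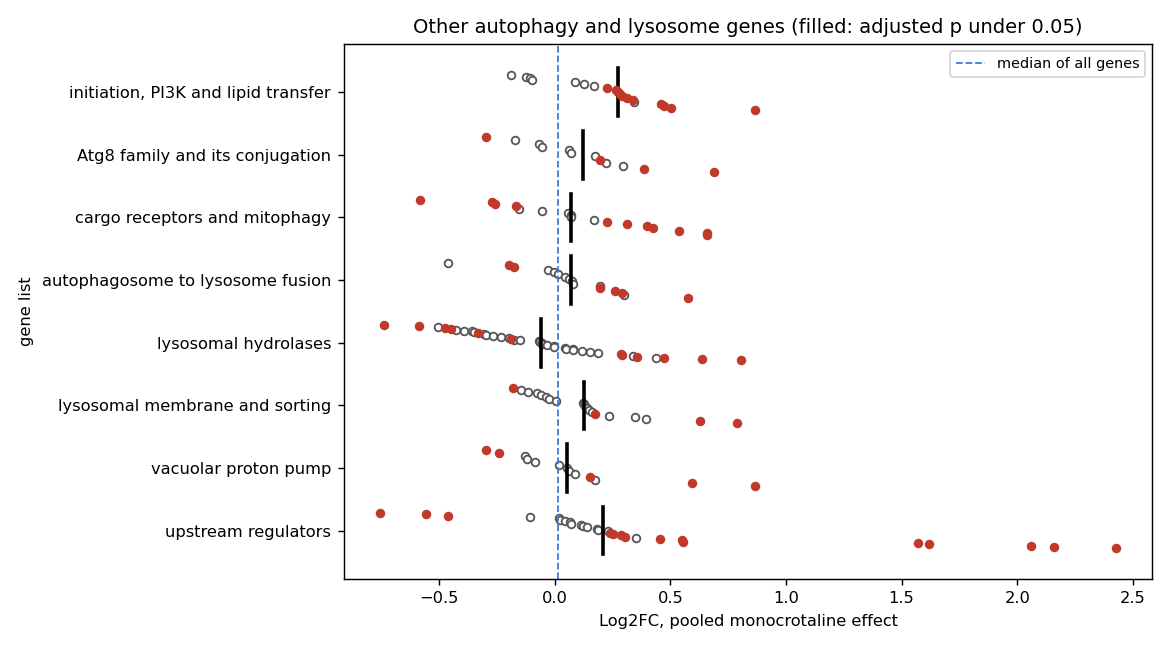
Pooled Log2FC (x axis, monocrotaline over saline) of the measured genes of 8 autophagy and lysosome lists (rows), without the 10 genes; filled points have an edgeR adjusted p-value under 0.05, black bars are list medians, and the dashed line is the median of all genes. The regulators reach furthest to the right, with Foxo1 at 2.43, and the hydrolases spread to both sides of their median of -0.059.

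Markers of the muscle and of other cells were read beside these results. All 8 muscle fiber markers were in the table and none passed the pooled test, with summed levels of 70771 to 124452 CPM over the 24 rats. Of 6 fibroblast markers 3 fell pooled, Col1a1 by 1.64, Col1a2 by 1.39 and Col3a1 by 1.46 on the log2 scale, with summed levels of 398.9 to 2836 CPM in Sed and 830.2 to 4962 in Ex, against 480.6 to 1494 in CC-Sed and 151.1 to 1571 in CC-Ex. The 4 measured slow fiber markers of 7 (without Myh7, Tnnt1 and Myl2) had sums of 56.8 to 2102 CPM in Sed and 59.9 to 6439 in Ex, against 81.0 to 7381 in CC-Sed and 16.9 to 5285 in CC-Ex, where replicate 5 had the lowest sum of all rats. None of the 4 passed, and their median Log2FC was 1.83 in Sed vs. CC-Sed (4 of 4 above 0) and 0.10 in Ex vs. CC-Ex (2 of 4). Of 4 endothelial markers Kdr rose pooled (0.60) and the other 3 had values below 0 that did not pass, with a list median of -0.15, and of 3 erythroid markers Hbb (1.11) and Hba-a1 (1.06) rose, and the adipocyte marker Adipoq fell by 1.09. The erythroid calls were lost with upper-quartile scaling, and that of Adipoq without CC-Ex replicate 5. No gene of the table is at 0, since it holds only genes with at least 10 counts in every rat. The part of these cells in the changes of the 10 genes was not tested.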

How the data were processed

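Poly-A RNA libraries of the left medial gastrocnemius from 24 rats were sequenced. The authors used Trim Galore for trimming, Salmon against the mRatBN7.2 rat transcriptome for quantification, and tximport to obtain gene-level values. The deposited values are estimated counts, rounded to whole numbers and not scaled for library size, for 10851 genes with at least 10 counts in every rat. The submitters' processing notes also name DESeq2 1.44.0. Totals lay between 37816239 and 50350554 counts per rat. Groups and replicate numbers came from the sample labels.

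Differential expression was tested with edgeR 4.0.16 in R 4.3.3 (TMM, quasi-likelihood F test, 1 model of the 4 groups, Benjamini-Hochberg adjustment over all genes). The SE was the size of the Log2FC over the square root of F. Log2 CPM had a prior count of 2. Alternatives were DESeq2 1.42.0, limma-voom with quality weights (limma 3.58.1), upper-quartile scaling, no filter, a mean of at least 100 counts per rat, a block for the replicate number, the library number or a slow fiber marker level as covariate, a fit on the rats of the comparison alone, each rat left out, and close copies summed (chosen after seeing the data). Library numbers were not balanced over the groups, with 9 to 24 in Sed and 7 to 23 in Ex, against 4 to 21 in CC-Sed and 1 to 14 in CC-Ex. That covariate is therefore partly tied to monocrotaline. The model was also run on simulated counts in which all genes had the same dispersion and only CC-Sed differed. Those counts did not imitate the wide spread of the monocrotaline rats. The numbers of same-numbered rats join different animals, and the mean correlation of their deviations was 0.095 in Sed vs. CC-Sed and -0.17 in Ex vs. CC-Ex.

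The 10 genes and the lists were chosen with earlier results of these data known. Beside the 10 genes, the text names from each pathway list the 3 genes with the smallest pooled p-value among those called, and the 3 genes nearest to each of the 10 by Pearson's r. Marker genes that passed are also named. Some genes that this rule selects are not reported here. Promoters came from RefSeq (GRCr8) and 7 of the 10 genes matched by symbol. The reads, the RT-qPCR values and the morphometric measures were not analysed here, and the data hold no protein levels.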

Additional observations from a re-analysis of the deposited data

Results flagged for a closer look

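Within each group of 6 rats, the highest or lowest rat was compared with the rest for each of the 10 genes, as its gap to the nearest rat divided by the range of the group, against Dixon's critical value at 95%. Of 40 groups tested, 7 exceeded it. No chance rate is set beside this count. The critical value assumes a normal spread and separate samples, whereas CPM were used without logs and the genes were correlated across rats. CC-Ex replicate 5 was the rat that stood apart in 5 of the 7. It was the highest CC-Ex rat for Map1lc3b at 897.6 CPM (0.888 of the range), for Sqstm1 at 2408 CPM (0.855), for Bnip3 at 2693 CPM (0.787), for Bnip3l at 123.1 CPM (0.742) and for Gabarapl1 at 701.9 CPM (0.739). For Ulk1 and Ctsl it was also the highest CC-Ex rat, at 286.3 and 705.3 CPM, without passing the critical value. The remaining 2 were in the Ex group, where replicate 6 was the lowest for Ulk1 at 41.5 CPM (0.651) and replicate 1 the highest for Ctsl at 136.7 CPM (0.645).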

How the results depend on the processing

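Over the 12 monocrotaline and 12 saline rats, the count of 8 was 8 under each alternative, 6 when a Log2FC of at least 1 was also required, and 8 to 9 with 1 rat left out (9 without CC-Ex replicate 4). The count of 6 DEGs was 3 with limma-voom, 4 with upper-quartile scaling and 5 with the block, and lay between 4 and 6 with 1 rat left out. The count of 3 in Sed vs. CC-Sed was 7 with DESeq2 and with only the rats of the comparison, 6 with the library number and with the slow fiber level as covariates, and 8 with limma-voom. It lay between 0 and 7 with 1 rat left out (0 without Sed replicates 2, 3 or 4 or CC-Sed replicates 1 or 6, and 7 without CC-Sed replicate 4). The count of 1 in Ex vs. CC-Ex was 7 with DESeq2, 8 with limma-voom, and 0 with only the rats of the comparison and with the replicate block. With 1 rat left out it lay between 0 (without CC-Ex replicates 5 or 6 or any Ex rat) and 7 (without CC-Ex replicate 4, with 5 without CC-Ex replicate 1). In the training comparisons and the interaction the count was 0 throughout. The cause of these differences was not tested. Over all genes, the 701 calls of Sed vs. CC-Sed became 1331 with DESeq2, 2474 with limma-voom and 1375 with the slow fiber level, and the 108 of Ex vs. CC-Ex became 685, 1043 and 152, and 23 with upper-quartile scaling, 42 with the library number and 1 with only its 12 rats or with the block. The replicate numbers join different animals, and the block left 2 of the 10 genes in Sed vs. CC-Sed (without Bnip3, adjusted p = 0.0728), 0 in Ex vs. CC-Ex (Gabarapl1, adjusted p = 0.0761) and 8 pooled.

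The values that turned sign were those of Becn1, of the training comparisons and of the interaction, none of which passed a test. With DESeq2 these were Map1lc3a 0.0035 in the interaction, Becn1 -0.00488 in the pooled effect. With the library number as a covariate these were Becn1 -0.017 in Ex vs. CC-Ex, Map1lc3a 0.0047 in the interaction, Becn1 -0.033 in the pooled effect. With limma-voom these were Becn1 -0.042 in Ex vs. CC-Ex, Map1lc3b -0.54, Gabarapl1 -0.27, Bnip3 -0.37, Bnip3l -0.11 and Ulk1 -0.42 in CC-Sed vs. CC-Ex, Map1lc3a 0.0046, Map1lc3b -0.53, Gabarapl1 -0.013, Bnip3 -0.24, Bnip3l -0.081, Ulk1 -0.31 and Becn1 -0.022 in the interaction, Becn1 -0.031 in the pooled effect. With a mean of at least 100 counts these were Becn1 -0.014 in the pooled effect. With the replicate block these were Map1lc3b 0.00530 in Sed vs. Ex, Map1lc3b -0.11, Bnip3 -0.0601 and Ulk1 -0.068 in CC-Sed vs. CC-Ex, Map1lc3b -0.12 in the interaction. With the slow fiber level as a covariate these were Becn1 0.043 in Sed vs. CC-Sed, Becn1 -0.013 in Ex vs. CC-Ex, Map1lc3b 0.16, Bnip3 0.023 and Bnip3l 0.061 in Sed vs. Ex, Map1lc3b -0.27, Bnip3 -0.13 and Ulk1 -0.11 in CC-Sed vs. CC-Ex, Map1lc3a 0.041, Map1lc3b -0.43, Bnip3 -0.15, Bnip3l -0.0205, Ulk1 -0.053 and Becn1 -0.056 in the interaction. With upper-quartile scaling these were Becn1 -0.045 in Ex vs. CC-Ex, Map1lc3a 0.0021 in the interaction, Becn1 -0.073 in the pooled effect. Ranges with 1 rat left out that cross 0 were as follows. In Sed vs. CC-Sed they were Becn1 from -0.073 to 0.00996. In Ex vs. CC-Ex they were Becn1 from -0.024 to 0.074. In Sed vs. Ex they were Map1lc3b from -0.13 to 0.0052, Bnip3 from -0.13 to 0.016, Bnip3l from -0.0404 to 0.0064, Becn1 from -0.0034 to 0.058. In CC-Sed vs. CC-Ex they were Map1lc3b from -0.85 to 0.71, Gabarapl1 from -0.44 to 0.50, Bnip3 from -0.58 to 0.32, Bnip3l from -0.14 to 0.27, Ulk1 from -0.40 to 0.24. In the interaction they were Map1lc3a from -0.075 to 0.081, Map1lc3b from -0.79 to 0.77, Gabarapl1 from -0.14 to 0.80, Sqstm1 from -0.62 to 0.12, Bnip3 from -0.50 to 0.40, Bnip3l from -0.12 to 0.29, Ulk1 from -0.23 to 0.41, Becn1 from -0.0013 to 0.10, Ctsl from -0.57 to 0.14. In the pooled effect they were Becn1 from -0.024 to 0.026.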
